A study of Mus musculus with 13 samples.

Results

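The vacuolar proton pump and its lysosomal partners were followed in RNA-seq counts of mouse lower incisors. The set took the protein-coding genes whose symbol begins with Atp6v or Atp6ap, together with Tcirg1, Clcn7, Ostm1, Lamp1, Lamp2 and 9 cathepsin genes. It held 39 of the 34709 genes counted. The libraries came from male mice at postnatal day 5 and fell into 3 genotypes, with 3 libraries of VDRgem, 5 of VDR-null and 5 of control. VDRgem is a mutant vitamin D receptor known to answer synthetic gemini ligands and not the natural hormone, VDR-null animals make no functional receptor as far as is known, and controls were wild type. No Cre driver, drug or diet is named in the labels for any group. Which animal gave which teeth, and how many teeth a library holds, is not stated in the labels. The p-values speak of the spread among these libraries.

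The vacuolar pump is a rotary machine that moves protons across membranes at the cost of ATP. Its V1 sector lies in the cytosol and splits ATP, its V0 sector lies in the membrane and carries the protons, and several subunits exist as paralogs used in different tissues. Lysosomes need the acid it makes for their proteases, the cathepsins, osteoclasts place the pump at the surface that faces bone, and ameloblasts of the maturation stage also use it.

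Total counts ran from 20405188 to 87783466 per library, and the 39 genes took 0.46 to 0.491% of them in VDRgem, 0.45 to 0.506% in VDR-null and 0.418 to 0.455% in control. Levels are counts scaled to library size (CPM) after TMM scaling, and fold changes are log2 values of edgeR's quasi-likelihood test over all 13 libraries, with standard errors (SE). A gene was called at a Benjamini-Hochberg adjusted p under 0.05 over the 17837 genes tested. The targeted gene, Vdr, had 107, 205 and 179 CPM in VDRgem, 213, 253, 260, 204 and 281 CPM in VDR-null, and 176, 166, 154, 180 and 142 CPM in control. A count per gene does not tell which exons were read, so these values do not check the labels. Tooth markers were high throughout. Amelx, an enamel matrix gene, ran from 10901 to 27552 CPM in VDRgem, from 6033 to 37092 CPM in VDR-null and from 5525 to 39379 CPM in control, and Dspp, a dentin matrix gene, did not fall under 14519 CPM in any library. Among the libraries, VDRgem 1 and VDR-null 3 stand apart. Summed levels of 14 oral keratinocyte markers reached 17311 CPM in VDRgem 1, 3967 CPM in VDRgem 2 and 330 CPM in VDRgem 3, with 27.8 to 136 CPM in VDR-null and 32.2 to 570 CPM in control. Summed levels of 10 skeletal muscle markers were 262, 49.6 and 29 CPM in VDRgem, 3.7, 10.2, 673, 24.9 and 66.8 CPM in VDR-null, and 6.2 to 28.9 CPM in control. Called members are given with and without VDRgem 1, and the changes in call without VDR-null 3 are named.

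Promoter windows from RefSeq on GRCm38.p6, running from 250 bases before to 50 bases after each start, were found for 30 of the 39 members, in 37 windows. Many lysosomal genes are known to carry the palindrome TCACGTGA, the core of the element bound by Tfeb and its relatives. It stood in 6 member windows (16.2%), those of Atp6v0d1, Atp6v0e, Atp6v1a, Clcn7, Ctsa and Ctsd, against 0.974% of all 32851 windows of that length. The shorter palindrome CACGTG, which lies inside the longer one, stood in 10 member windows (27%) against 7.15% of all. The DR3 vitamin D response element was found in 0 member windows, against 0.0396% of all windows. Both palindromes read the same on either strand, and the response element was searched on both. The matches are shown to let the shared letters be seen, with the palindrome in capitals, 5′ to 3′ on the strand of the gene, with up to 10 bases on each side.
Atp6v0d1, chr8:105566051-105566078, minus strand: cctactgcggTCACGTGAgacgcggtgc
Atp6v0e, chr17:26676388-26676415, plus strand: agcgcgccgaTCACGTGAgcctctgttg
Atp6v1a, chr16:44139374-44139401, minus strand: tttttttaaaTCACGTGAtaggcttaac
Clcn7, chr17:25133387-25133414, plus strand: cgatgatagaTCACGTGAgacctgggcg
Ctsa, first match, chr2:164833750-164833777, plus strand: gagcaaactgTCACGTGAtgcagatgct
Ctsa, second match, chr2:164833767-164833794, plus strand: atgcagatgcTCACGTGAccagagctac
Ctsd, chr7:142387909-142387936, minus strand: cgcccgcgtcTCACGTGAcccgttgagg

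Atp6v0e and Atp6v1a are the members that both held TCACGTGA and passed the test in a comparison, and their whole windows are given for that reason. Atp6v1b1, the member with the widest change, was added after its values were seen. Its window held no TCACGTGA. It held TGTTTAC, the core letters of forkhead factors, from base -98 relative to the start, and it was the 1 member window of 37 (2.7%) with that motif on either strand, against 3.65% of all windows. In mouse kidney, the forkhead factor Foxi1 is known to drive Atp6v1b1. Capitals mark TCACGTGA in the Atp6v1a and Atp6v0e windows and TGTTTAC in the Atp6v1b1 window.
Atp6v1a, chr16:44139210-44139509, minus strand: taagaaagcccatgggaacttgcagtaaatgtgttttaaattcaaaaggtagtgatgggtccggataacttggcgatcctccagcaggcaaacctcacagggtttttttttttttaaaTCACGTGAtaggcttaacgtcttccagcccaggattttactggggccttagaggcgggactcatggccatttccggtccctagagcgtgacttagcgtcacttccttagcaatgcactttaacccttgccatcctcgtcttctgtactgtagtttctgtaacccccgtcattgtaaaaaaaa
Atp6v0e, chr17:26676146-26676445, plus strand: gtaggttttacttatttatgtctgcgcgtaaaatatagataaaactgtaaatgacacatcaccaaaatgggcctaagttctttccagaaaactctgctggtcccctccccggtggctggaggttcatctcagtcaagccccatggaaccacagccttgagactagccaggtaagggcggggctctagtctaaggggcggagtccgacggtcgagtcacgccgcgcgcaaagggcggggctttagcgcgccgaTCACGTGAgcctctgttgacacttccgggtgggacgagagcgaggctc
Atp6v1b1, chr6:83742767-83743066, plus strand: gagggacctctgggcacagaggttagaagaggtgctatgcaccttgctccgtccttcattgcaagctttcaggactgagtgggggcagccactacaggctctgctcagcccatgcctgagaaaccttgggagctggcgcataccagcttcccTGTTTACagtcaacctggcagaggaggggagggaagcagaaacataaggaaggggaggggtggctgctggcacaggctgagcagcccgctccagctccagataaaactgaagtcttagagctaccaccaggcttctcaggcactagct

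Of the 39 members, 36 passed the filter on low counts. Atp6ap1l, a relative of the accessory gene Atp6ap1, had 1 to 13 counts per library and was not tested. Atp6v1e2, an E subunit known from testis, had 1 count in VDR-null 1 and 0 counts in every other library. Atp6v1fnb, a neighbour of Atp6v1f and not a pump subunit, had 1 count in each of control 2 and control 3 and 0 elsewhere. Among the tested members, Lamp1 and Ctsb stood highest per kilobase of exon in every group, at 203 and 202 CPM per kb in VDRgem, 195 and 193 in VDR-null, and 174 and 161 in control. The lowest in VDRgem and VDR-null was Atp6v1b1, at 0.0165 CPM per kb in VDRgem and 0.185 in VDR-null, with 0.493 in control. In control Atp6v0a4 was lowest, with 0.578 CPM per kb in VDRgem, 0.192 in VDR-null and 0.184 in control.

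VDRgem incisors were set against control to see which pump and lysosome transcripts change with a receptor that does not respond to the natural hormone. Atp6v0e, a small membrane subunit, and Ctsl, a cysteine protease, rose, and Atp6v1b1 fell. These 3 of 36 tested members (8.33%) compare with 8.62% of all genes tested, with 4.8% called higher and 3.82% called lower. The fold change was positive for 33 of the 36 members, with a median of 0.28 against 0.00 over all genes. In 14 members every VDRgem library lay above every control library, against 9.01% of all genes, and 7 of those 14 were cathepsins. A member lay below in every library in 1 case, Atp6v1b1, against 10.3% of all genes. Without VDRgem 1 edgeR called 0 members, with a median of 0.18. Of all 18137 genes then tested it called 39 higher and 27 lower, against 856 and 681 of 17837 with all libraries. Leaving out VDRgem 2 gave 1 member higher and 0 lower, VDRgem 3 gave 6 higher, VDR-null 2 gave 4 higher, VDR-null 3 gave 3 higher (Ctsf added), and control 1, 2, 4 or 5 gave 0 higher. Among all genes tested, 708 were higher and 324 lower without VDRgem 2. Those higher numbered 1250 without VDRgem 3, 910 without VDR-null 2 and 914 without VDR-null 3. Without control 1, 2, 4 and 5 they numbered 452, 457, 513 and 400. Scaling by library totals gave 0 higher and 1 lower, with a median of 0.11 for the members and -0.168 for all genes. A keratinocyte score as covariate left 0 member calls by edgeR. With it, 0 of all 17837 genes were called higher and 0 lower.

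VDR-null incisors were compared with control in the same fit. edgeR called 0 of the 36 members, against 1.33% of all genes, 0.678% higher and 0.656% lower. At an unadjusted p under 0.05 there were 12 members, 9 higher and 3 lower, and the share of all genes at that p is not given here. DESeq2 called Ctsh and Lamp2 higher and Atp6v0c lower, and limma-voom called 0. Of all 17837 genes DESeq2 called 785 higher and 862 lower, and limma-voom 127 and 121. The median was 0.05, against 0.01 over all genes, with 8 of 9 cathepsins above 0 and 13 of 21 pump subunits below it. Lamp2 was the 1 member with every VDR-null library above every control library, which 3.91% of all genes showed, and 0 members lay below in every library, against 3.18% of all genes. Lamp2 was called higher when VDRgem 1 or VDRgem 3 was left out, Ctsh when VDR-null 4 was, and Atp6v0c lower when VDR-null 3 was, which also gave a median of -0.01.

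More members were called between the mutants than in either comparison with control. In VDRgem against VDR-null, 10 members rose and 1 fell, 30.6% of the 36 tested, against 18.8% of all genes, of which 10.6% were higher and 8.18% lower. Of the pump subunits 10 of 21 were called (47.6%), with 9 higher and Atp6v1b1 lower, while of the cathepsins 1 of 9 was called, Ctsf. The accessory, chloride and Lamp genes held 0 calls and no member at an unadjusted p under 0.05 by edgeR, and DESeq2 called none of them. In 6 members every VDRgem library lay above every VDR-null library, against 9.17% of all genes, and in 0 members every one lay below, against 8.84%. Medians were 0.37 for the pump subunits without Atp6v1b1, 0.13 for cathepsins and -0.02 for all genes. Without VDRgem 1 edgeR called 0 members in this comparison and the median of the pump subunits was 0.21. Of all 18137 genes then tested, 321 were called higher and 113 lower. The 10 higher members became 5 without VDRgem 2, VDR-null 1 or VDR-null 4, 4 without VDR-null 5, 6 without control 2, 12 without VDR-null 3 (Atp6v0e, Ctsa and Ctsd added, Atp6v0a4 lost), 1 (Atp6v0c) with only the 2 groups fitted, and 0 with a keratinocyte score as covariate. With that covariate 1 of all 17837 genes was called higher and 12 lower. Among all genes tested, 1243 were higher without VDRgem 2, 1288 without VDR-null 1, 1627 without VDR-null 4 and 1442 without VDR-null 5. The number was 1644 without control 2, 2363 without VDR-null 3 and 584 with only the 2 groups fitted, against 1887 with all libraries. Scaling by library totals gave 5 higher and 3 lower, with a median of -0.01 for the members and -0.188 for all genes, of which 1310 were called higher and 3616 lower against 1887 and 1459 with TMM. The comparison shares its VDRgem libraries with the first and its VDR-null libraries with the second.

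**Figure D1:**
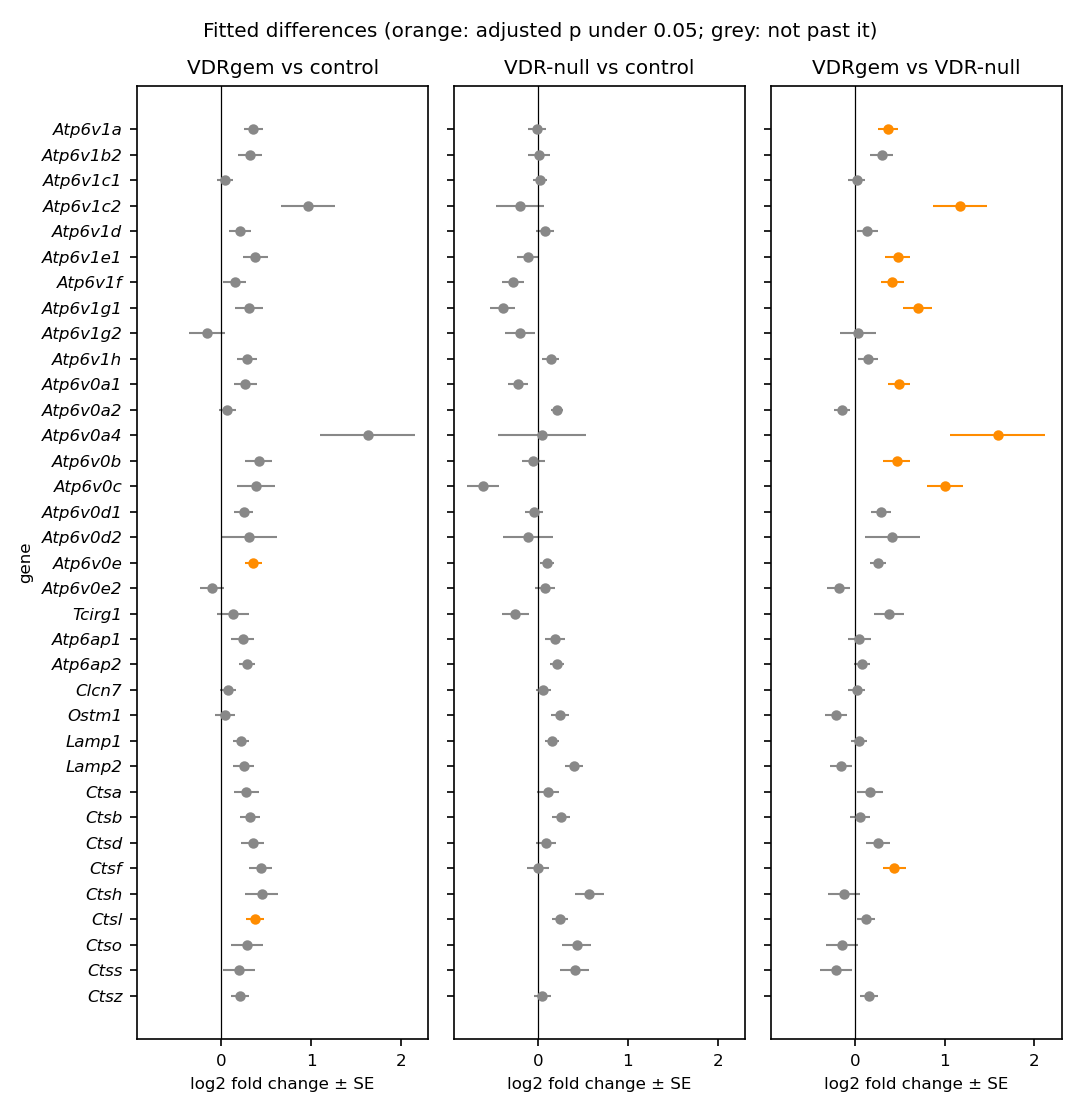
Log2 fold change of each tested member (points, with bars of 1 SE) in VDRgem vs control, VDR-null vs control and VDRgem vs VDR-null, with called members in orange and the others in grey. Atp6v1b1, at -4.67, -1.35 and -3.32, lies outside the axis and is not drawn. Most members lie right of 0 in the left and right panels, and pump subunits lie on both sides of it in the middle one.

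Summed over the 22 pump subunits, levels were 1798, 1467 and 1369 CPM in VDRgem, 1210, 1356, 1357, 1164 and 1100 CPM in VDR-null, and 1232, 1311, 1395, 1195 and 1266 CPM in control. VDRgem 1 and VDRgem 2 lay above all other libraries and VDRgem 3 lay inside the control range. The 9 cathepsins summed to 2563, 2350 and 2661 CPM in VDRgem, 2130, 2685, 2728, 2100 and 2074 CPM in VDR-null, and 1923, 1954, 2048, 2161 and 1954 CPM in control. Here all 3 VDRgem libraries lay above every control, and VDR-null 2 and VDR-null 3 lay above all of them. As deviations from the control mean, the median pump subunit without Atp6v1b1 stood at 0.55, 0.23 and 0.06 (log2) in VDRgem 1, 2 and 3, and the median cathepsin at 0.32, 0.20 and 0.38. VDRgem 1 held the highest level of 19 of the 36 members.

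**Figure D2:**
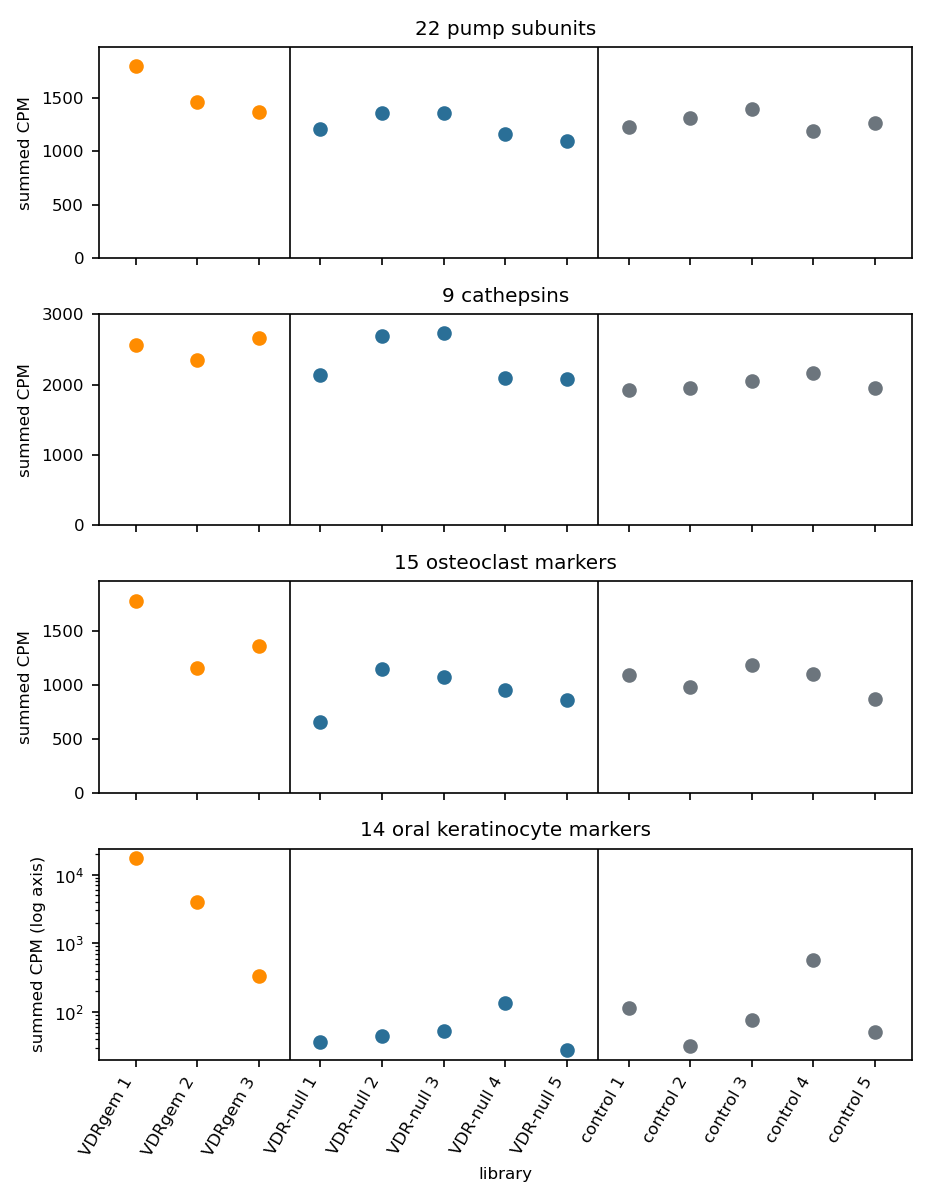
Summed CPM of the 22 pump subunits, 9 cathepsins, 15 osteoclast markers and 14 oral keratinocyte markers in each library, ordered by genotype (points are libraries, and the keratinocyte panel has a log axis). VDRgem 1 is highest for pump subunits, osteoclast markers and keratinocyte markers, while VDR-null 3 is highest for cathepsins.

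In the membrane sector V0, proteolipids form the ring that turns as protons pass. Atp6v0c, the c subunit of the ring that carries protons, had 28.0, 22.8 and 22.9 CPM in VDRgem, 7.42, 11.2, 16.2, 13.9 and 12.5 CPM in VDR-null, and 22.2, 18, 22.5, 16.0 and 14.8 CPM in control. Every VDRgem library lay above every control, and 4 of 5 VDR-null libraries lay below every control. It was higher in VDRgem than in VDR-null by 1.01 (SE 0.20, adjusted p = 0.00727), or 0.90 without VDRgem 1 (adjusted p = 0.0533), and it differed from control by 0.39 in VDRgem (SE 0.21, adjusted p = 0.265) and by -0.61 in VDR-null (SE 0.18, adjusted p = 0.0791). The annotation also holds 2 processed pseudogenes of Atp6v0c, which can share reads with it and are not members. Atp6v0b, the c″ subunit of the same ring, had 116, 92.0 and 90.3 CPM in VDRgem, 59.0, 79.4, 92.0, 72.9 and 54.5 CPM in VDR-null, and 75.7, 78.5, 76.5, 74.6 and 64.9 CPM in control. VDRgem lay above all controls and met the VDR-null range at its top. The difference from VDR-null was 0.47 (SE 0.15, adjusted p = 0.0387), against 0.34 without VDRgem 1 (adjusted p = 0.213). With an offset for GC content it was 0.20 (adjusted p = 0.226), and with one for transcript length 0.23 (adjusted p = 0.18).

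Atp6v0e, the e1 subunit, had 93.2, 74.6 and 74.8 CPM in VDRgem, 68.4, 72.0, 73.6, 64.3 and 58.6 CPM in VDR-null, and 61.7, 61.2, 68.2, 60.4 and 63.7 CPM in control. All VDRgem libraries lay above all libraries of the other groups. The rise over control was 0.36 (SE 0.09, adjusted p = 0.03), and the difference from VDR-null was 0.26 (SE 0.09, adjusted p = 0.0596). Without VDRgem 1 the rise over control was 0.23 (adjusted p = 0.221), and without control 1, 2, 4 or 5 the adjusted p was 0.0635, 0.0632, 0.067 and 0.0606. Its paralog Atp6v0e2 ran from 11.7 to 13.1 CPM in VDRgem, 11.9 to 17.9 in VDR-null and 11.4 to 15.8 in control and was not called. Atp6v0d1, the common d subunit that joins the ring to the stalk, ran from 101 to 147 CPM in VDRgem, 83.0 to 112 in VDR-null and 98.0 to 106 in control. Atp6v0d2, the d subunit known from osteoclasts, ran from 6.03 to 12.6 CPM in VDRgem, 3.15 to 9.96 in VDR-null and 5.55 to 9.50 in control. Neither d gene was called.

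The large a subunit, which forms the path for protons, is made from 4 genes. Atp6v0a1 had 254, 206 and 178 CPM in VDRgem, 139, 164, 166, 152 and 133 CPM in VDR-null, and 155, 169, 210, 161 and 186 CPM in control. VDRgem lay above every VDR-null library and overlapped control. It was higher than in VDR-null by 0.49 (SE 0.12, adjusted p = 0.0177), or 0.34 without VDRgem 1 (adjusted p = 0.134). Atp6v0a4, the form known from kidney and inner ear, had 5.60, 2.33 and 0.696 CPM in VDRgem, 1.02, 0.305, 1.17, 1.46 and 0.814 CPM in VDR-null, and 0.613, 0.852, 0.907, 0.906 and 1.29 CPM in control. VDRgem 1 and VDRgem 2 lay above all other libraries and VDRgem 3 among them. The VDRgem libraries had this order for Atp6v0a1 and also for the keratinocyte markers, whose part in the Atp6v0a4 difference was not tested. The difference from VDR-null was 1.59 (SE 0.53, adjusted p = 0.049), and the call was kept in 2 of 13 fits that left out a library. It was 0.65 without VDRgem 1 (adjusted p = 0.473) and -0.45 without VDRgem 1 and VDRgem 2. An overlap of 5.21% of its exon length with D630045J12Rik on the same strand also limits its count.

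Atp6v0a2, the form of the Golgi and endosomes, had 80.2, 79.2 and 93.5 CPM in VDRgem, 81.7, 93.0, 104, 96.7 and 89.0 CPM in VDR-null, and 85.2, 83.2, 74.4, 81.6 and 77.4 CPM in control. In VDR-null 4 of 5 libraries lay above every control, with a difference of 0.21 (SE 0.07, adjusted p = 0.122). Tcirg1, the a3 form on which osteoclasts depend, had 66.4, 65.3 and 72.6 CPM in VDRgem, 30.8, 57.1, 62.7, 51.9 and 60.0 CPM in VDR-null, and 70.4, 66.4, 60.7, 62.9 and 52.0 CPM in control. VDR-null 1 stood far below the other 12 libraries, and every VDRgem library lay above every VDR-null library. The difference between the mutants was 0.38 (SE 0.17, adjusted p = 0.141), and the differences from control were 0.13 in VDRgem and -0.25 in VDR-null, both uncalled.

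Per length, Atp6v0a1 held the largest mean share of the a subunit in all groups, with 53.5 ± 5.46% of the summed level in VDRgem (SD, n = 3), 47.7 ± 3.36% in VDR-null (n = 5) and 51.0 ± 4.70% in control (n = 5). The Atp6v0a2 share was 18, 20.4 and 24.4% in VDRgem, 30.2, 26.9, 28.2, 29.2 and 28.3% in VDR-null, and 24.5, 23.4, 19.6, 24.0 and 22.4% in control. All VDR-null libraries lay above all others. Tcirg1 made up 24.7 ± 2.95% of the sum in VDRgem, 23.3 ± 4.14% in VDR-null and 25.9 ± 3.10% in control, ranges that overlap. Atp6v0e took 79.0 to 82.1% of the e subunits in VDRgem, 72.6 to 77.2% in VDR-null and 72.1 to 77.6% in control, so the VDRgem shares stood above all others. The Atp6v0d2 share of the d subunits averaged 4.95 ± 1.51% in VDRgem, 4.51 ± 1.49% in VDR-null and 4.73 ± 0.938% in control. These shares had no test of their own.

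**Figure D3:**
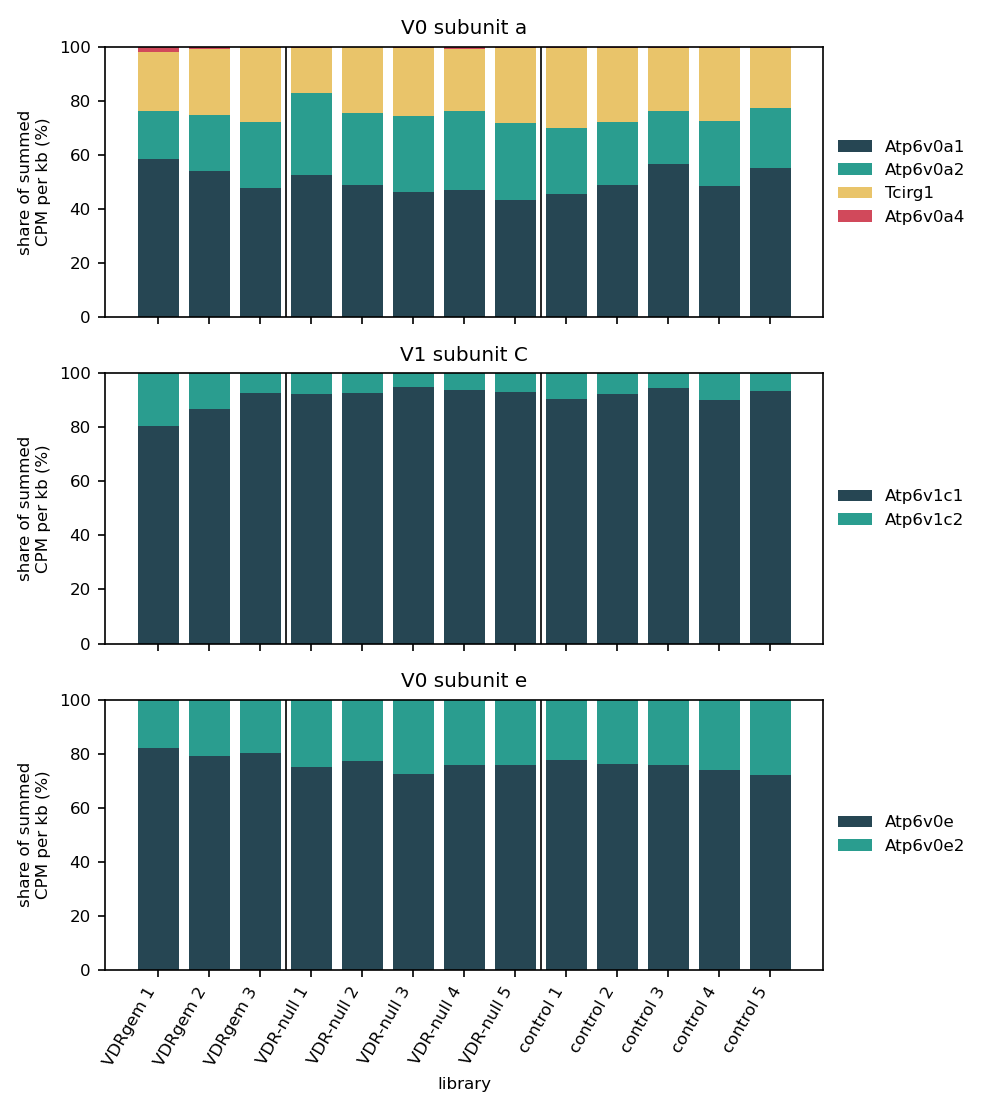
Share (percent) of each paralog in the summed level per kb of subunits a, C and e as stacked bars, 1 bar per library, ordered by genotype. The Atp6v0a2 share lies between 26.9 and 30.2% in VDR-null and between 18 and 24.5% elsewhere, and the Atp6v1c2 share runs from 7.44 to 19.6% in VDRgem.

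In the catalytic sector V1, Atp6v1b1 gave the widest change of the set. It encodes the B1 subunit, known from the acid-secreting cells of kidney, inner ear and epididymis. It had 0.0575, 0 and 0.159 CPM in VDRgem, 1.85, 0.0538, 0.0404, 1.79 and 0.331 CPM in VDR-null, and 1.39, 2.46, 1.77, 2.47 and 2.72 CPM in control. The counts behind these were 3, 0 and 13 in VDRgem, 129, 3, 1, 92 and 13 in VDR-null, and 43, 52, 117, 117 and 169 in control. All VDRgem libraries lay below all controls, and VDR-null was split, with VDR-null 1 and 4 inside the control range and VDR-null 2, 3 and 5 below it. In VDRgem against control its fitted log2 value was -4.67 (SE 1.12, adjusted p = 0.0239). It was -4.50 without VDRgem 1 (adjusted p = 0.118), -4.21 without VDRgem 2 (adjusted p = 0.0679) and -4.58 without control 5 (adjusted p = 0.0519). Against VDR-null the change was -3.32 (SE 1.1, adjusted p = 0.0489), or -3.16 without VDRgem 1 (adjusted p = 0.172), and that call was kept in 3 of 13 fits without a library. VDR-null differed from control by -1.35 (SE 0.73, adjusted p = 0.282). B1 made up 0.0543% of the B subunits in VDRgem, 0.697% in VDR-null and 1.86% in control, the rest being Atp6v1b2.

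The next 4 genes were chosen after their values were seen. Foxi3, a forkhead factor of tooth and skin epithelium, had 0.211, 0.154 and 0.745 CPM in VDRgem, 2.85, 0.412, 0.889, 3.16 and 0.356 CPM in VDR-null, and 2.03, 2.79, 3.07, 2.99 and 3.55 CPM in control, and its VDRgem fold change over control was -2.89 (SE 0.74, adjusted p = 0.0305), or -2.62 without VDRgem 1 (adjusted p = 0.149). Like Atp6v1b1, it was at control level in VDR-null 1 and 4 and under it in VDR-null 2, 3 and 5. Sfrp5, a Wnt antagonist known from the apical end of the incisor, had 0.767 to 1.29 CPM in VDRgem, 10.9, 1.11, 5.82, 11.4 and 9.59 CPM in VDR-null, and 9.26 to 15.4 CPM in control. Pcp4 had 0.195 to 0.396 CPM in VDRgem, 7.95, 0.520, 0.606, 5.22 and 4.71 CPM in VDR-null, and 4.78 to 7.42 CPM in control. Lypd1 had 1.52 to 2.11 CPM in VDRgem, 22.2, 1.58, 2.83, 15.9 and 18.1 CPM in VDR-null, and 12.2 to 20.1 CPM in control. Sfrp5, Pcp4 and Lypd1 were low in VDRgem and in VDR-null 2 and 3. In VDR-null 5, where Atp6v1b1 and Foxi3 were under every control, Sfrp5 and Lypd1 lay in the control range and Pcp4 just under it. In whole incisors, fewer cells of a type and less RNA per cell cannot be told apart. Of the 12 names listed for ionocytes and intercalated cells, 10 had a row and 6 were tested. Barttin, a name without a row, is the product of the listed gene Bsnd. In VDRgem against control 1 fell (Foxi3), beside 3.82% of all genes called lower, and Foxi1 was at 0 in all libraries. Against VDR-null 1 rose, Slc4a1, by 1.20 (SE 0.35, adjusted p = 0.0333), beside 10.6% of all genes called higher. Without VDRgem 1 that value was 1.41 (adjusted p = 0.0583). Slc4a1 in VDRgem differed from control by 0.51 (adjusted p = 0.416). The listed genes summed to 120 to 160 CPM in VDRgem, 106 to 173 CPM in VDR-null and 125 to 145 CPM in control, nearly all of it Car12, a carbonic anhydrase.

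**Figure D4:**
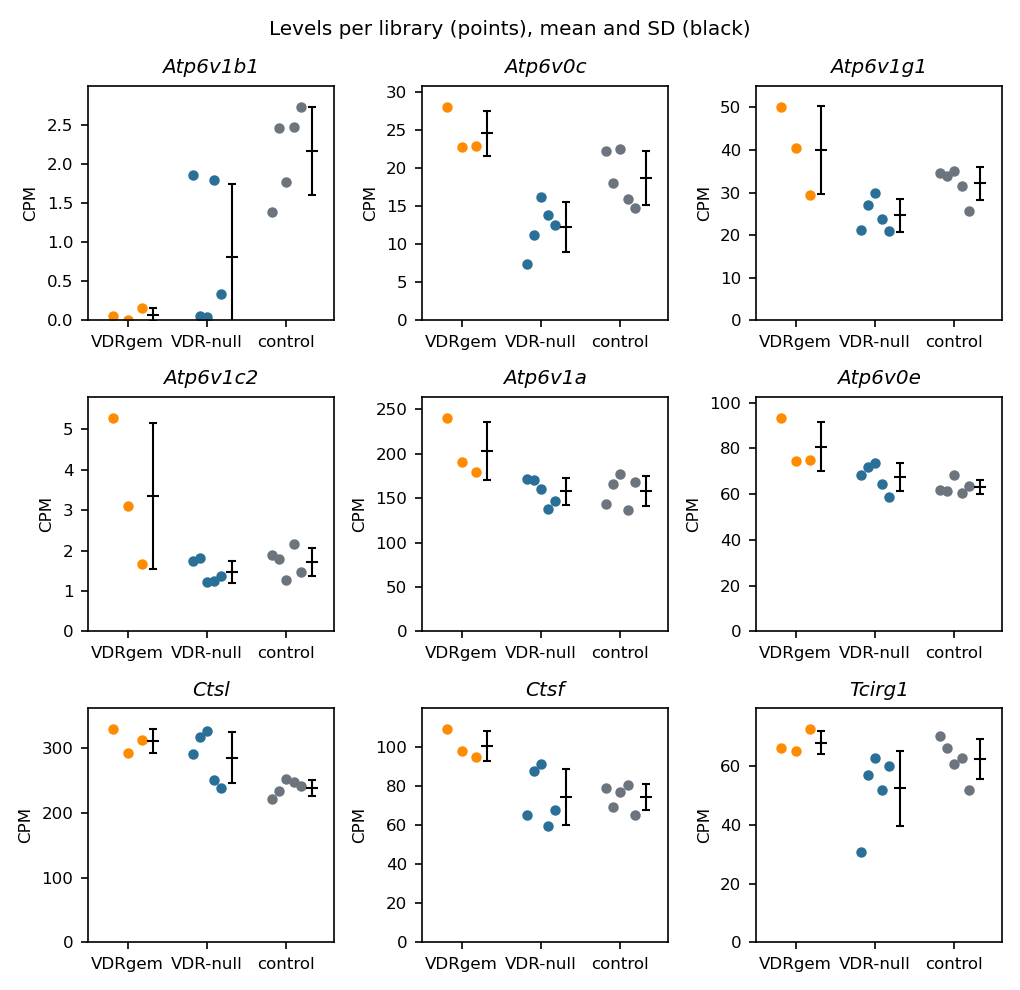
CPM of 9 members in each library (points), with the group mean and SD (black bars, cut at 0 for Atp6v1b1), for VDRgem, VDR-null and control. Atp6v1b1 lies near 0 in VDRgem and splits in VDR-null, Atp6v0c is lowest in VDR-null, and VDRgem 1 is the top point of Atp6v1g1, Atp6v1c2 and Atp6v1a.

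The other V1 subunits rose in VDRgem against VDR-null in 5 cases. Atp6v1g1, the G1 stalk subunit, had 50, 40.4 and 29.5 CPM in VDRgem, 21.3, 27.1, 29.9, 23.8 and 21.0 CPM in VDR-null, and 34.5, 34.0, 35.1, 31.6 and 25.7 CPM in control. VDRgem 3 lay within the other groups and the other two VDRgem libraries above them. The difference from VDR-null was 0.70 (SE 0.16, adjusted p = 0.0125), against 0.50 without VDRgem 1 (adjusted p = 0.0951) and 0.45 with an offset for transcript length (adjusted p = 0.0231), and VDR-null differed from control by -0.39 (SE 0.14, adjusted p = 0.132). Atp6v1c2, the C2 subunit known from lung and kidney, had 5.27, 3.10 and 1.67 CPM in VDRgem, 1.73, 1.81, 1.21, 1.24 and 1.37 CPM in VDR-null, and 1.90, 1.80, 1.26, 2.15 and 1.46 CPM in control. It was higher than in VDR-null by 1.17 (SE 0.30, adjusted p = 0.0189), with 0.67 without VDRgem 1 (adjusted p = 0.182), and its difference from control was 0.97 (SE 0.30, adjusted p = 0.062). Its share of the C subunits was 19.6, 13.3 and 7.44% in VDRgem 1, 2 and 3, against 5.23 to 7.68% in VDR-null and 5.39 to 9.94% in control. The order of the VDRgem libraries was again that of the keratinocyte markers. The levels of Atp6v0a1, Atp6v0a4, Atp6v0b, Atp6v0d1, Atp6v0e2, Atp6v1a, Atp6v1b2, Atp6v1d, Atp6v1e1, Atp6v1f, Atp6v1g1 and Atp6v1h had it too. Those of Atp6v0a2, Atp6v0c, Atp6v0d2, Atp6v0e, Tcirg1, Atp6v1b1, Atp6v1c1 and Atp6v1g2 did not. With the longest coding transcript as length, the mean C2 share was 7.44% in VDRgem, 3.54% in VDR-null and 4.17% in control. Atp6v1c1, its common paralog, ran from 52.1 to 55.9 CPM in VDRgem, 47.1 to 60.2 in VDR-null and 47.2 to 56.8 in control.

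Atp6v1a, the A subunit that splits ATP, had 240, 191 and 179 CPM in VDRgem, 172, 171, 160, 138 and 147 CPM in VDR-null, and 144, 166, 177, 137 and 168 CPM in control. VDRgem lay above every other library. It was higher than in VDR-null by 0.37 (SE 0.11, adjusted p = 0.0391), against 0.22 without VDRgem 1 (adjusted p = 0.267), and differed from control by 0.36 (SE 0.11, adjusted p = 0.0669). Atp6v1e1, the E1 stalk subunit, had 176, 125 and 107 CPM in VDRgem, 101, 108, 108, 84.5 and 84.4 CPM in VDR-null, and 96.9, 105, 119, 97.2 and 106 CPM in control. VDRgem 1 stood well above the rest, and VDRgem 3 lay in the range of both other groups. The difference from VDR-null was 0.48 (SE 0.14, adjusted p = 0.0315), or 0.25 without VDRgem 1 (adjusted p = 0.245). Atp6v1f, the small F subunit of the central shaft, had 43.8, 35.6 and 29.9 CPM in VDRgem, 23.7, 28.9, 33.3, 25.8 and 24.1 CPM in VDR-null, and 36.2, 33.7, 33.4, 33.1 and 28.1 CPM in control. It was higher in VDRgem than in VDR-null by 0.42 (SE 0.13, adjusted p = 0.0414), with 0.26 without VDRgem 1 (adjusted p = 0.261), 0.26 with the GC offset (adjusted p = 0.115) and 0.16 with the length offset (adjusted p = 0.241), and VDRgem 3 again lay among the others.

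The remaining V1 genes were not called in any comparison. Atp6v1b2, the common B subunit, ran from 147 to 217 CPM in VDRgem, 120 to 160 in VDR-null and 115 to 155 in control. Atp6v1d, of the central shaft, ran from 104 to 130 CPM in VDRgem, 89.6 to 129 in VDR-null and 90.5 to 113 in control, and Atp6v1h, which couples the sectors, from 54.1 to 60.0 CPM in VDRgem, 45.9 to 57.7 in VDR-null and 38.8 to 53.6 in control. Atp6v1g2, the neuronal G form, ran from 5.10 to 8.51 CPM in VDRgem, 4.70 to 8.83 in VDR-null and 6.93 to 9.33 in control, and its share of the G subunits was 7.71 ± 3.60% in VDRgem (SD, n = 3), 11.1 ± 3.14% in VDR-null (n = 5) and 9.77 ± 1.16% in control (n = 5), or 12% in VDRgem, 16.9% in VDR-null and 15.1% in control by the longest coding transcript. Of these, Atp6v1h alone had every VDRgem library above every control, with a fold change of 0.29 (SE 0.11, adjusted p = 0.115).

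The members called higher in VDRgem than in VDR-null were mostly short. Their longest coding transcript had a median of 1440 bp (806 to 4234, n = 10), against 2539 bp (1355 to 6168, n = 25) for members not called, with a median GC content of 50.6% against 50.1%. An offset for a smooth trend with transcript length, added after this was seen, called 7 of the 10. An offset for GC content called 6 of the 10 and also Atp6v0e. Of all 17837 genes the length offset called 1645 higher and 2176 lower between the mutants, and the GC offset 1043 and 1533. Without an offset these counts were 1887 and 1459. The all-gene median was -0.085 with the length offset, -0.076 with the GC offset and -0.023 without. Under both offsets, Atp6v0a1, Atp6v0c, Atp6v1a, Atp6v1c2, Atp6v1e1 and Atp6v1g1 were called.

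No accessory or chloride gene was called by edgeR. Atp6ap2, which joins the pump to other membrane proteins and is also known as the prorenin receptor, had 77.4, 67.0 and 68.1 CPM in VDRgem, 69.9, 72.4, 66.7, 65.0 and 61.1 CPM in VDR-null, and 49.6, 61.6, 65.5, 53.5 and 58.9 CPM in control. All VDRgem libraries lay above all controls, with a difference of 0.29 (SE 0.09, adjusted p = 0.0661) that DESeq2 called. Atp6ap1, an accessory subunit needed for assembly, ran from 254 to 274 CPM in VDRgem, 193 to 299 in VDR-null and 194 to 261 in control. Clcn7, the lysosomal exchanger of chloride for protons, ran from 62.9 to 67.9 CPM in VDRgem, 52.4 to 73.4 in VDR-null and 58.0 to 64.2 in control, and its partner Ostm1 from 19.3 to 22.8 CPM in VDRgem, 21.0 to 29.5 in VDR-null and 17.8 to 22 in control. For Clcn7 the fold changes were 0.08 in VDRgem and 0.06 in VDR-null against control, with SE of 0.09 and 0.08, both uncalled.

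The Lamp genes encode the sugar-coated proteins that line the lysosomal membrane. Lamp2 had 183, 205 and 274 CPM in VDRgem, 242, 270, 224, 230 and 255 CPM in VDR-null, and 171, 187, 203, 173 and 192 CPM in control. Every VDR-null library lay above every control, with a difference of 0.40 (SE 0.10, adjusted p = 0.0577), the smallest p of any member in that comparison. DESeq2 called it higher, and in edgeR leaving out VDRgem 1 or 3, or fitting VDR-null and control alone, also did. In VDRgem the difference from control was 0.25 (SE 0.12, adjusted p = 0.201). Lamp1 ran from 517 to 568 CPM in VDRgem, 450 to 599 in VDR-null and 434 to 486 in control, and all VDRgem libraries lay above all controls without a call (0.22, SE 0.09, adjusted p = 0.173).

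The cathepsins are the proteases, and for Ctsa the carboxypeptidase, that work in the acid lumen. Ctsl had 329, 292 and 312 CPM in VDRgem, 291, 317, 327, 251 and 238 CPM in VDR-null, and 221, 233, 252, 247 and 241 CPM in control. It rose in VDRgem against control by 0.38 (SE 0.10, adjusted p = 0.0364), with no overlap, and the VDR-null difference was 0.25 (SE 0.09, adjusted p = 0.121). The Ctsl call was kept in 6 of 13 fits without a library, with adjusted p from 0.0273 to 0.185 and a fold change from 0.33 to 0.43, the 0.185 and 0.33 being without VDRgem 1. Overlaps of 6.09% of its exon length with a processed pseudogene on the same strand and 26.8% with the antisense gene Gm47123 leave its count uncertain. The strand setting of the counts is not given. Ctsf, a widely made cysteine protease, had 109, 97.7 and 94.8 CPM in VDRgem, 65.2, 87.6, 91.3, 59.3 and 67.7 CPM in VDR-null, and 79.2, 69.5, 76.7, 80.5 and 65.1 CPM in control. VDRgem lay above all other libraries, by 0.44 over VDR-null (SE 0.13, adjusted p = 0.0349) and by 0.44 over control (SE 0.13, adjusted p = 0.0544). The difference from VDR-null was 0.37 without VDRgem 1 (adjusted p = 0.171), 0.13 with the GC offset (adjusted p = 0.484) and 0.29 with the length offset (adjusted p = 0.0914).

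Ctsh, an aminopeptidase and endopeptidase, had 103, 111 and 128 CPM in VDRgem, 94.2, 143, 167, 89.8 and 129 CPM in VDR-null, and 84.5, 78.2, 84.4, 100 and 70.7 CPM in control. VDR-null 2, 3 and 5 and all of VDRgem lay above every control. The differences from control were 0.45 in VDRgem (SE 0.18, adjusted p = 0.136) and 0.57 in VDR-null (SE 0.16, adjusted p = 0.0643). Ctsb, the most abundant cathepsin, had 1168, 1122 and 1372 CPM in VDRgem, 1097, 1392, 1276, 1044 and 1033 CPM in VDR-null, and 903, 957, 1004, 1038 and 977 CPM in control. All VDRgem libraries and 4 of 5 VDR-null libraries lay above every control, with differences of 0.32 (SE 0.11, adjusted p = 0.0949) and 0.26 (SE 0.10, adjusted p = 0.143). Ctso, a little-studied cysteine protease, had 36.1, 40.6 and 56.3 CPM in VDRgem, 46, 64.1, 51.4, 33.3 and 50.2 CPM in VDR-null, and 40.4, 38.9, 35.5, 36.6 and 30.0 CPM in control. Here 4 of 5 VDR-null libraries lay above every control (0.43, SE 0.16, adjusted p = 0.128).

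Ctsd, the aspartic protease, ran from 277 to 376 CPM in VDRgem, 221 to 330 in VDR-null and 236 to 272 in control, but 34.4% of its exon length is shared with Gm49369 on the same strand, so its count is uncertain. Ctsz, a carboxypeptidase, ran from 164 to 175 CPM in VDRgem, 130 to 180 in VDR-null and 134 to 158 in control, and Ctsa from 209 to 246 CPM in VDRgem, 158 to 268 in VDR-null and 174 to 201 in control. For Ctsd, Ctsz and Ctsa every VDRgem library lay above every control, with fold changes of 0.35, 0.21 and 0.28, none called. Ctss, the protease of antigen-presenting cells, ran from 20.3 to 31.3 CPM in VDRgem, 23.5 to 37.2 in VDR-null and 17.6 to 28.7 in control and overlapped in every comparison. Without VDRgem 1 the median cathepsin difference from control was 0.33, against 0.32 with it, while that of the pump subunits without Atp6v1b1 was 0.12, against 0.30 with it.

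**Figure D5:**
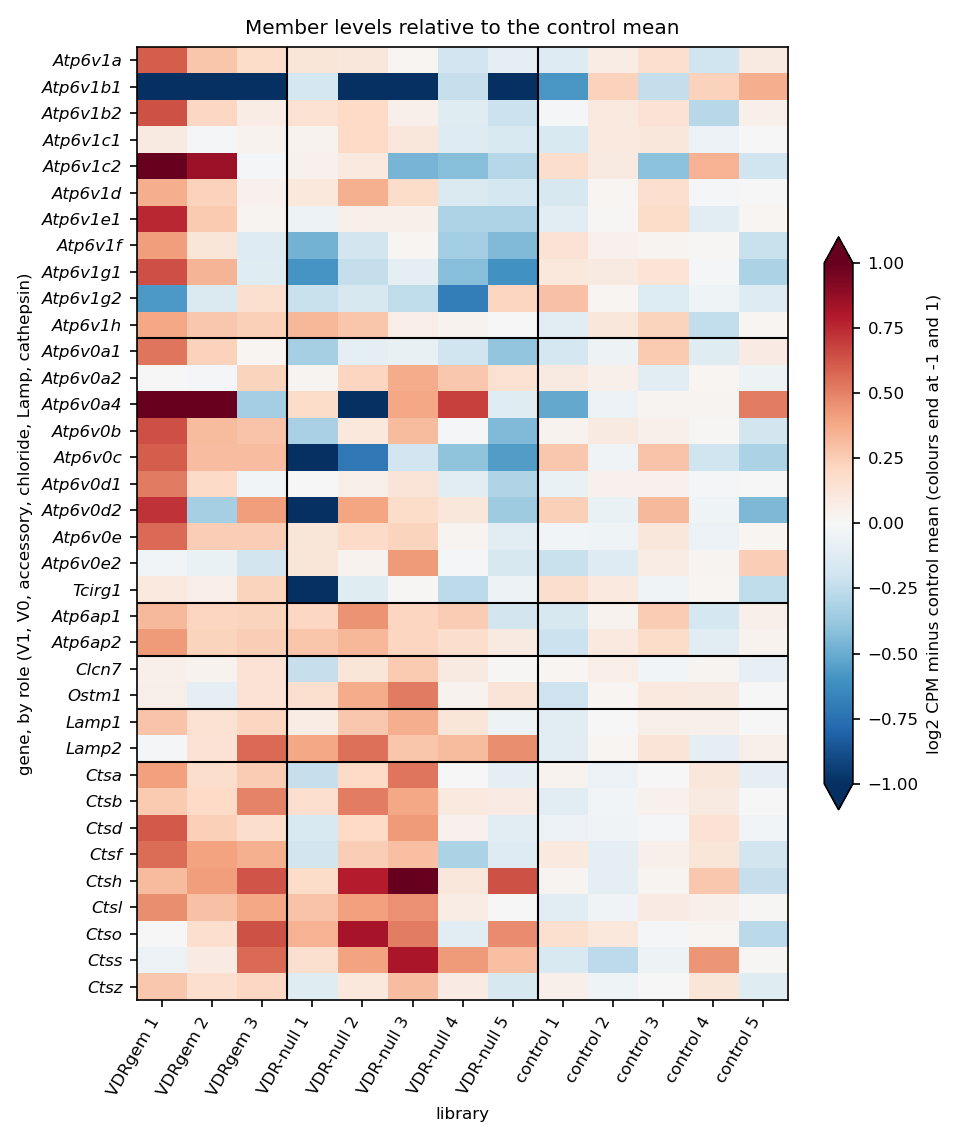
Log2 deviation of each tested member (rows) from the control mean in each of the 13 libraries (columns, grouped by genotype), coloured from low to high. Most pump subunits are highest in VDRgem 1, though Atp6v1g2, Atp6v0a2 and some others are not. Most cathepsins are raised in all VDRgem libraries and in VDR-null 2 and 3, but Ctso and Ctss are not raised in VDRgem 1. Atp6v1b1 is low in VDRgem and in VDR-null 2, 3 and 5.

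Other lysosomal genes came from lists written from general knowledge. Of 34 further lysosomal hydrolases, 3 rose in VDRgem against control, 3 in VDR-null against control and 2 in VDRgem against VDR-null, and 0 fell by edgeR, with medians of 0.22, 0.14 and 0.07. Called higher were 4.8% of all genes in VDRgem against control, 0.678% in VDR-null against control and 10.6% in VDRgem against VDR-null. Without VDRgem 1 the hydrolases higher numbered 0, 5 and 0 in those 3 comparisons by edgeR. Of all 18137 genes tested in that fit, 39, 314 and 321 were called higher, in the same order. Ctsc, which activates serine proteases, stood at 83.6 ± 12.9 CPM in VDRgem (SD, n = 3), 77.4 ± 10.5 in VDR-null (n = 5) and 52.6 ± 2.72 in control (n = 5), and was called in both mutants (0.67, adjusted p = 0.00951, and 0.56, adjusted p = 0.0299). Lipa, the acid lipase, rose in VDR-null to 51.7 ± 1.87 CPM against 38.4 ± 1.41 CPM in control (0.43, adjusted p = 0.018). Manba, a mannosidase, rose in VDRgem against both, at 0.50 over control (adjusted p = 0.0114) and 0.30 over VDR-null (adjusted p = 0.0414). Arsa, a sulfatase, rose in VDRgem against VDR-null by 0.38 (SE 0.11, adjusted p = 0.0301). Without VDRgem 1 the VDRgem values over control were 0.54 for Ctsc (adjusted p = 0.0618) and 0.51 for Manba (adjusted p = 0.0664), and over VDR-null 0.31 for Manba (adjusted p = 0.124) and 0.33 for Arsa (adjusted p = 0.145). Without VDR-null 3 the adjusted p of Manba against VDR-null was 0.0623. In that fit 7 of the 34 hydrolases rose in VDRgem against VDR-null, with a median of 0.12, and 2363 of all 18056 genes were called higher. These comparisons share their controls.

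Among 20 lysosomal membrane and sorting genes, 2 rose in VDRgem against control, 1 rose in VDR-null against control, and 1 fell in VDRgem against VDR-null. For this list and the next, 4.8% of all genes were called higher in VDRgem against control and 0.678% in VDR-null against control. Between the mutants 10.6% of all genes were called higher and 8.18% lower. Scarb2, a receptor that sorts a lysosomal enzyme, and Igf2r, which carries enzymes to lysosomes, rose in VDRgem, by 0.39 (adjusted p = 0.0265) and 0.35 (adjusted p = 0.0313). M6pr, the other carrier of that kind, averaged 94.1 ± 1.5 CPM in VDRgem (SD, n = 3), 108 ± 6.13 CPM in VDR-null (n = 5) and 90.8 ± 3.10 CPM in control (n = 5), and was called higher in VDR-null against control (0.25, adjusted p = 0.0443) and lower in VDRgem against VDR-null (-0.20, adjusted p = 0.0431). Of 28 tested genes of pump assembly and control, 2 rose in VDRgem against control, Tmem9b and Rragc, 0 passed in VDR-null against control by edgeR, and 2 rose and 1 fell between the mutants. Tfeb, the factor known to drive lysosomal genes, stood at 23.0 ± 5.73 CPM in VDRgem (SD, n = 3), 11.5 ± 3.42 in VDR-null (n = 5) and 14.9 ± 2.67 in control (n = 5). It was higher in VDRgem than in VDR-null by 1.01 (SE 0.23, adjusted p = 0.0124), and the difference from control was 0.63 (SE 0.23, adjusted p = 0.113). Lamtor4, of the lysosomal nutrient sensor, rose by 0.47 between the mutants (adjusted p = 0.0359), and Oxr1, which binds the pump, fell by 0.37 on the log2 scale (adjusted p = 0.0382). Without VDRgem 1 edgeR called none of the 20 and none of the 28 in either VDRgem comparison, and Tfeb differed from VDR-null by 0.80 (adjusted p = 0.0892). Of all 18137 genes in that fit, 39 rose and 27 fell in VDRgem against control, and 321 and 113 against VDR-null. The M6pr difference between the mutants had an adjusted p of 0.0613 without VDR-null 3. In that fit 0 of the 20 were called between the mutants, and of the 28 there were 3 higher and 2 lower. Of all 18056 genes 2363 were called higher and 1830 lower.

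Markers of cell types that are rich in the pump were read in the same libraries. The 15 osteoclast markers summed to 1783, 1158 and 1357 CPM in VDRgem, 660, 1149, 1076, 951 and 857 CPM in VDR-null, and 1094, 979, 1183, 1097 and 867 CPM in control, with VDR-null 1 lowest as for Tcirg1. Of them 1 rose in VDRgem against control and 5 against VDR-null, and 0 passed in VDR-null against control, beside 4.8, 10.6 and 0.678% of all genes called higher in those comparisons. Without VDRgem 1 none rose in VDRgem by edgeR in either comparison, with medians of 0.20 over control and 0.38 over VDR-null against 0.48 and 0.59 with it, and 1 marker fell in VDR-null against control. Among all 18137 genes that fit called 39 higher in VDRgem over control, 321 higher over VDR-null, and 366 lower in VDR-null against control. Itgb3, an osteoclast integrin, rose in VDRgem by 0.74 over control (adjusted p = 0.0252) and by 0.68 over VDR-null (adjusted p = 0.022), and Nfatc1, the master factor of osteoclasts, rose by 0.55 over VDR-null (adjusted p = 0.0182). Siglec15 had 0.453 ± 0.269 CPM in VDRgem (SD, n = 3), 0.124 ± 0.0639 CPM in VDR-null (n = 5) and 0.437 ± 0.127 CPM in control (n = 5). The mutants lay 1.87 apart (adjusted p = 0.0151), or 1.32 without VDRgem 1 (adjusted p = 0.127). VDR-null differed from control by -1.79 (SE 0.42, adjusted p = 0.0519), with 29 counts in all in VDR-null. The 14 maturation ameloblast markers summed to 5346 to 6572 CPM in VDRgem, 3295 to 5313 CPM in VDR-null and 3734 to 4267 CPM in control, and 4 rose in VDRgem against control and 7 against VDR-null. Odam, a protein of maturing enamel, rose by 0.90 over control (adjusted p = 0.0178), and the exchanger Slc24a4 by 0.95 over VDR-null (adjusted p = 0.00559). Without VDRgem 1 none of these markers was called by edgeR over control and 1 over VDR-null, Slc24a4, at 0.80 (adjusted p = 0.0466).

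Macrophage markers, 14 genes, summed to 444, 434 and 603 CPM in VDRgem, 449, 592, 579, 495 and 463 CPM in VDR-null, and 452, 379, 447, 443 and 416 CPM in control, with VDR-null 2 and 3 high as for the cathepsins. Cd163 rose in VDRgem and in VDR-null against control (1.49, adjusted p = 0.013, and 1.59, adjusted p = 0.0231), and Adgre1 in VDR-null (0.76, adjusted p = 0.0373). Without VDRgem 1 the Cd163 value in VDRgem was 1.49 (adjusted p = 0.0689), and 5 macrophage markers were called higher in VDR-null against control. In that fit 314 of all 18137 genes were called higher in VDR-null against control, beside 121 of 17837 with all libraries. Of the keratinocyte markers, 12 of 13 tested rose in VDRgem against control and 13 against VDR-null, with Ivl at 0 in VDRgem, and without VDRgem 1 these counts were 3 and 12. Krt10 averaged 930 ± 980 CPM in VDRgem (SD, n = 3), 3.39 ± 0.636 CPM in VDR-null (n = 5) and 5.08 ± 1.18 CPM in control (n = 5). Of 10 secretory ameloblast markers 1 fell in VDRgem against control and 1 rose and 2 fell against VDR-null, of 10 odontoblast markers 1 rose against VDR-null, of 9 tested muscle markers 1 rose in VDRgem against control (4 without VDR-null 3), and of 7 tested neutrophil markers 0 passed by edgeR in any comparison. Of all genes, 4.8% were called higher and 3.82% lower in VDRgem against control, and 10.6% and 8.18% in VDRgem against VDR-null. In VDR-null against control 0.678% were called higher. The part of these cell types in the differences of the pump and lysosome genes was not tested.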

How the data were processed

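Stranded poly-A RNA-seq libraries of lower incisors were used, 13 in all. The deposited counts are whole reads per gene without scaling. Of the programs and genome behind them, bcl2fastq 2.20.0.422, STAR 2.5.3a, HTSeq 0.6.1p1 and mm10 are named, per the submitters' processing notes. Neither the annotation release nor the strand setting is given in the sources used here, so reads of overlapping and antisense genes may be shared. Symbols, positions and lengths came from GENCODE M21 on GRCm38, which matched 34618 of 34709 genes. Another gene of the same naming, Atp6v1g3, was not analysed here.

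Counts were fitted with edgeR 4.0.16 in R 4.3.3 (TMM scaling, filterByExpr with a minimum count of 10, quasi-likelihood test), with all 13 libraries in 1 fit and a mean per group. Calls used a Benjamini-Hochberg adjusted p under 0.05. Levels per kb used the union of exons. Alternatives were DESeq2 1.42.0, limma-voom (limma 3.58.1), other scalings, no filter, only the groups compared, a keratinocyte covariate (the mean log2 CPM of its markers), each library left out, VDRgem 1 and 2 left out, and offsets for GC content and transcript length. The 2 offsets were chosen after the data were seen. The fit was tested on simulated counts in which 200 genes were changed by folds of 2 or 4 between VDRgem and control. It recovered 84% of the 2-fold and 100% of the 4-fold changes and called 12 unchanged genes. All genes were given the same spread, and smaller changes or an outlying library were not simulated.

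The members, the marker lists and the tests were chosen with earlier results of these data known. Every member is named. Values in every library are given for members that passed in a comparison and, where under 8 passed, for those of smallest p up to 8. Up to 3 genes of smallest p were taken from each further list. Some listed genes that entered the counts are not reported here by name. Intervals cover the spread between libraries only.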

Additional observations from a re-analysis of the deposited data

Results flagged for a closer look

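With 5 libraries per group, 2 of the 72 member and group pairs of VDR-null and control held a library far from its group, where chance gives about 1 in 20. Ctsd stood at 272 CPM in control 4, against 236 to 243 CPM in the other controls, a gap of 0.799 of the range. Atp6v0b stood at 64.9 CPM in control 5, against 74.6 to 78.5 CPM in the other controls, a gap of 0.713 of the range. Neither gene was called against control in the fit of all libraries.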

How the results depend on the processing

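No paired analysis was possible because the labels give no replicate numbers that tie libraries of different genotypes. For members higher in VDRgem than in control (2), the count was 9 with DESeq2, 7 with only the 2 groups compared, 4 with the GC offset, and 0 with library totals alone, with the keratinocyte covariate and without VDRgem 1 and 2. The 1 lower member became 0 with limma-voom, the covariate and without VDRgem 1 and 2, and the median of 0.28 became 0.11 with library totals and 0.11 with the covariate. For VDR-null against control, 0 higher became 2 with DESeq2, 1 with only the 2 groups compared and 1 without VDRgem 1 and 2, and 0 lower became 1 with DESeq2. For VDRgem against VDR-null, 10 higher became 5 with library totals, 1 with only the 2 groups compared, and 0 with the covariate and without VDRgem 1 and 2. The 1 lower became 3 with library totals and 0 with DESeq2 size factors in edgeR, limma-voom, only the 2 groups, the covariate, the GC offset and without VDRgem 1 and 2, and the median of 0.16 became -0.01 with library totals. Library totals moved the median of all genes by -0.168 against control and -0.188 against VDR-null, with 589 higher and 1576 lower genes against 856 and 681 in VDRgem against control, 91 and 256 against 121 and 117 in VDR-null against control, and 1310 and 3616 against 1887 and 1459 between the mutants. The cause of the other changes was not tested. Among all genes DESeq2 called 1239 higher and 1081 lower in VDRgem against control. It called 785 and 862 in VDR-null against control, and 2370 and 1913 between the mutants. With only the 2 groups compared, edgeR called 1022 higher and 950 lower in VDRgem against control. That setting gave 308 and 395 in VDR-null against control, and 584 and 169 between the mutants. The GC offset gave 910 and 1064 in VDRgem against control, and 1043 and 1533 between the mutants.

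Fits that left out 1 library gave 0 to 6 higher, 0 to 1 lower and a median of 0.18 to 0.33 in VDRgem against control, 0 to 1 higher, 0 to 1 lower and -0.01 to 0.09 in VDR-null against control, and 0 to 13 higher, 0 to 2 lower and 0.10 to 0.21 between the mutants. The sign turned for Atp6v1f (-0.06), Atp6v1c2 (-0.13) and Atp6v0a4 (-0.85) in VDRgem against VDR-null with the covariate, and for Atp6v0a4 (-0.45) without VDRgem 1 and 2. Of the 14 single calls, 14 were kept with DESeq2 and without the filter, 13 with DESeq2 size factors, 11 with the length offset, 10 with limma-voom, 9 with the GC offset, 7 with library totals, 4 with only the 2 groups, and 0 with the covariate and without VDRgem 1. The covariate runs from 2.90 to 7.79 in VDRgem and up to 2.98 in the other groups, so it takes up part of the group difference. With it, edgeR called 0 higher and 0 lower of all genes in VDRgem against control, and 1 and 12 between the mutants. Without VDRgem 1 these all-gene counts were 39 and 27, and 321 and 113. With VDRgem 1 and 2 left out, VDRgem 3 is assumed to vary like the other groups. For Atp6v1b1 the depth gives 13 counts or fewer per VDRgem library, which limits its fold change.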
